A study of Mus musculus with 22 samples.

Results

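In mouse retinal endothelial cells, 2351 accessible regions were called in both genotypes with a clearly wider peak in gTKO mice, made to lose S1P receptors. Each is a pair of ATAC-seq peaks, 1 from the control list and 1 from the gTKO list. The 2 peaks overlap each other and no other peak, and the gTKO peak is at least 25% wider than the control peak. These 2351 pairs were 6.21% of the 37872 pairs matched 1 to 1 on chromosomes 1 to 19 and X. The regions were chosen by the measured widths, so widths are described below without a test, and nothing is read from that percentage.

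The cells were sorted from retinas at postnatal day 6, although the cell type label also calls them adult. Control mice carried S1pr1flox/flox, S1pr2flox/flox and S1pr3-/- on C57BL/6. The gTKO mice carried the same alleles with Rosa26-CreERT2, and both groups received 100 µg tamoxifen from day 1 to day 3. S1pr3 was therefore absent from both groups, and the comparison concerns S1pr1 and S1pr2. The Rosa26 locus is active in most cell types, so recombination was not limited to the endothelium, and peak positions do not show how complete it was. Each group had 3 ATAC-seq libraries made from 5000 to 8000 sorted cells, with retinas of 4 to 6 pups pooled per replicate. Each group is represented by 1 peak list, so the values have no replicate error and no test between genotypes was possible. Read depth is unknown. Endothelial identity could not be checked, because the lists hold positions only and were not joined to genes.

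Sphingosine 1-phosphate is a lipid carried in blood, and the products of S1pr1, S1pr2 and S1pr3 are its receptors at the cell surface. In the growing retinal vasculature, S1PR1 is known to stabilise junctions and to restrain sprouting. In ATAC-seq the Tn5 transposase cuts DNA that nucleosomes and other proteins leave open, and a peak is a stretch where cuts are dense. Peak width depends on how far the open stretch reaches beyond a regulatory element. It also depends on the number of reads and on the calling threshold. Broad peaks are typical of active gene starts, and narrow ones of distal elements or of weak sites near the limit of calling.

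The wider regions were mostly small peaks. Their control peaks were 150 to 1503 bp wide, with a median of 213 bp and quartiles of 171 and 277.5 bp. Their gTKO peaks were 188 to 1908 bp wide, with a median of 335 bp and quartiles of 264 and 435 bp. The median gain was 106 bp and the largest 715 bp. The median ratio was 1.44 and the highest 4.36. The ratio was under 1.5 in 1386 of the 2351 regions. It was at least 1.5 in 965 (2.55% of all pairs) and at least 2 in 238 (0.628% of all pairs), and 25 regions reached 3 or more. A gain of at least 200 bp was found in 356 regions. Together the control peaks of these regions covered 569 kb and the gTKO peaks 870 kb.

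Against all pairs, these regions ran opposite to the prevailing direction. The median ratio over all 37872 pairs was 0.866, and in 13865 pairs (36.6%) the control peak was at least 25% wider than the gTKO peak. Wider regions were thus 14.5% of the pairs past that limit in either direction. With every ratio divided by the median of 0.866, which centres the lists on each other, 4739 pairs were wider and 7643 narrower in gTKO, and the wider share was 38.3%. The pairs that did not belong to the wider regions had a median control width of 510 bp.

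**Figure D1:**
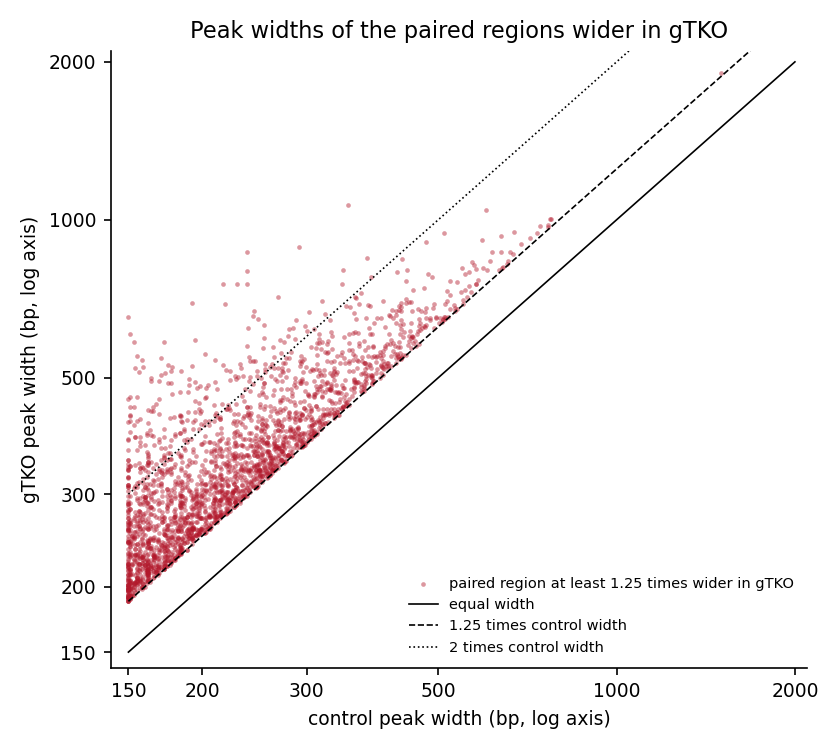
Width of the control peak (x axis, bp, log scale) and of the gTKO peak (y axis, bp, log scale) for each of the 2351 wider regions. Points start at the dashed line of 25% because the rule sets it, crowd at control widths under 300 bp, and lie above the dotted line of 2 times the control width in 238 regions.

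The small control width of these regions follows in part from the rule, since a narrow control peak needs little gain to pass it and no peak was under 150 bp. By control width, 1025 regions (43.6%) came from peaks of 150 to under 200 bp, 857 from 200 to under 300 bp, 407 from 300 to under 500 bp and 61 from 500 to under 1000 bp. A single region, on chromosome 10, came from a control peak of at least 1000 bp. A control peak of exactly 150 bp, the smallest width in the list, was found in 110 regions (4.68%). Of the 37872 pairs, 37604 had a control peak above 150 bp, and 2241 of these were wider regions. The share of pairs that were wider regions was therefore higher at 150 bp than above it. The wider regions made up 26.5% of pairs with a control peak of 150 to under 200 bp (95% interval 25.1 to 27.9%), and 0.534% of those with 500 to under 1000 bp (0.409 to 0.686%). Grouping by the geometric mean of both widths treats the lists alike. On that scale the share was 8.62% at 150 to under 200 bp, 12.7% at 200 to under 300 bp, 8.01% at 300 to under 500 bp and 1.41% at 500 to under 1000 bp. Narrower pairs exceeded wider ones in each of these classes, with 24.1%, 42.7%, 46.5% and 37.8%. The difference between the directions was therefore smallest, as a ratio, among the narrowest pairs and grew with width.

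**Figure D2:**
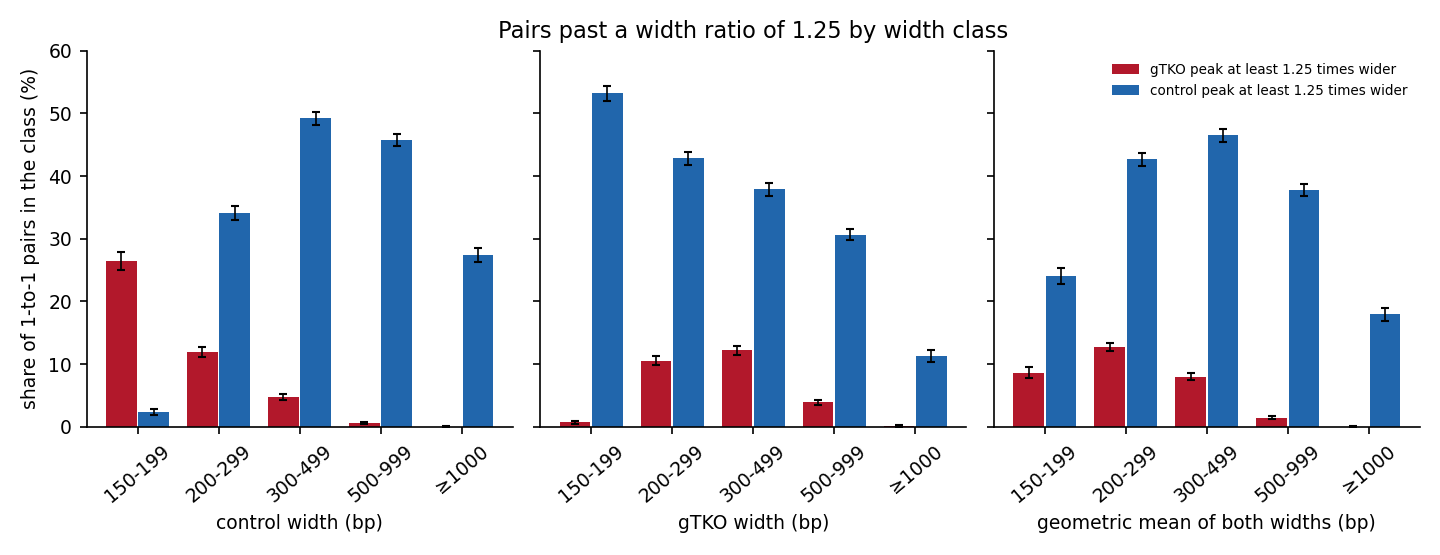
Share of 1-to-1 pairs (y axis, %) with 1 peak at least 25% wider than the other, by class of control width, gTKO width or the geometric mean of both (x axes, bp). Red bars are pairs wider in gTKO and blue bars pairs wider in control, with exact 95% intervals. Wider pairs reach 26.5% only where classes are set by control width, and 12.7% at most by the geometric mean.

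In 76.4% of these regions the gTKO peak passed both edges of the control peak by at least 1 bp, but often by little on one side. The control peak lay wholly inside the gTKO peak in 1858 of 2351 regions (79.0%, 95% interval 77.3 to 80.7%), and the gTKO peak passed both edges in 1797 (76.4%, 74.7 to 78.1%). With at least 25 bp required on each side the share was 43.7%, and with 50 bp it was 19.6%. A further 61 regions grew past 1 edge and ended exactly at the other. In 493 regions (21.0%) the gTKO peak passed 1 edge and fell short of the other by at least 1 bp. Some of these shortfalls were of 1 bp only, and whether such peaks changed position was not tested. In only 13 regions did the overlap cover under 50% of the control peak. Growth had no preferred direction along the chromosome: 1159 regions extended further at the lower coordinate and 1180 at the higher one. The median extension was 52 bp at the lower edge and 53 bp at the higher edge.

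Growth was uneven within a region. The longer extension had a median of 86 bp and the shorter one 19 bp. Of the 1797 regions that grew on both sides, 789 (43.9%) had a longer extension at least 3 times the shorter. The gTKO peaks covered 314 kb outside their control partners, while the control peaks covered 12.3 kb outside theirs. Among the 13865 narrower pairs the control peak passed both gTKO edges in 87.9% (87.4 to 88.4%). Among the 5193 pairs that were wider in gTKO by less than 25%, growth past both edges was found in 33.5% (32.2 to 34.8%). Because edge positions come from the same widths that chose the regions, these shares are descriptions.

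The regions with the largest growth are named here by position, as spans of the gTKO peak in mm9. The 10 largest gains, the 10 highest ratios and the 5 widest gTKO peaks are 20 distinct regions on 10 chromosomes. The largest gain was at chr11:7104927-7105993. A control peak of 352 bp lay inside a gTKO peak of 1067 bp, with 289 bp added at the lower edge and 426 bp at the higher one. Within 10 kb of it lay 1 gTKO-only region, called in gTKO without a control partner, and 3 control-only regions, so its surroundings went both ways.

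At chr3:133289482-133290351 the peak measured 238 bp in control and 870 bp in gTKO, a ratio of 3.66, and 461 of the 632 bp gained lay at the higher edge. No one-list region lay within 50 kb of it. Growth at chr4:11917054-11917940 was one-sided, from 291 to 887 bp. The gTKO peak fell 15 bp short of the lower control edge and passed the higher edge by 611 bp, the longest extension of all. At chr14:23406555-23407354 (238 to 800 bp) the longer side was the lower one, with 460 bp. The same held at chr11:17368447-17369201 (229 to 755 bp), with 424 bp.

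The other large gains were chr13:36787687-36788441 (217 to 755 bp), chr11:81846114-81846869 (238 to 756 bp), chr4:146033039-146033733 (192 to 695 bp) and chr3:148733016-148733707 (218 to 692 bp). In 9 of the 10 largest gains the control peak was wholly contained. The highest ratio, 4.36, was at chr8:14607917-14608570, where a control peak of 150 bp, the smallest width in the list, faced a gTKO peak of 654 bp. This region stood alone: the nearest other pair was 271 kb away and no one-list region lay within 50 kb.

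Most other high ratios also started from very narrow control peaks, so each rests on a control peak close to the smallest width in the list. They included chr2:134370557-134371163 (151 to 607 bp), chr14:118861000-118861584 (153 to 585 bp), chr8:124001531-124002081 (155 to 551 bp), chr8:113316862-113317401 (158 to 540 bp), chr2:132037779-132038364 (a ratio of 3.41) and chr17:84509401-84509921 (154 to 521 bp). None of the 10 highest ratios had a control peak above 238 bp.

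The widest gTKO peak of the class, chr10:107882237-107884144, was the single region with a control peak above 1000 bp. It grew from 1503 to 1908 bp, a ratio of 1.27, and 390 of the 405 bp gained lay at its lower edge. The region at chr18:60856168-60857212 grew from 603 to 1045 bp, by 207 and 235 bp at its edges, and had the highest ratio (1.73) among the widest 5 apart from the chromosome 11 region above. The remaining 2 were chr14:25582957-25583959 (776 to 1003 bp) and chr3:62247350-62248351 (773 to 1002 bp). At the limit of the rule, the regions just inside were 25% wider, at chr12:90057226-90057805 (464 to 580 bp), chr12:111696941-111697175 (188 to 235 bp) and chr12:118717398-118717787 (312 to 390 bp). Pairs just outside measured 477 and 596 bp, 301 and 376 bp, and 297 and 371 bp. The limit is a choice on a continuous scale, and nothing sets these 6 pairs apart.

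**Figure D3:**
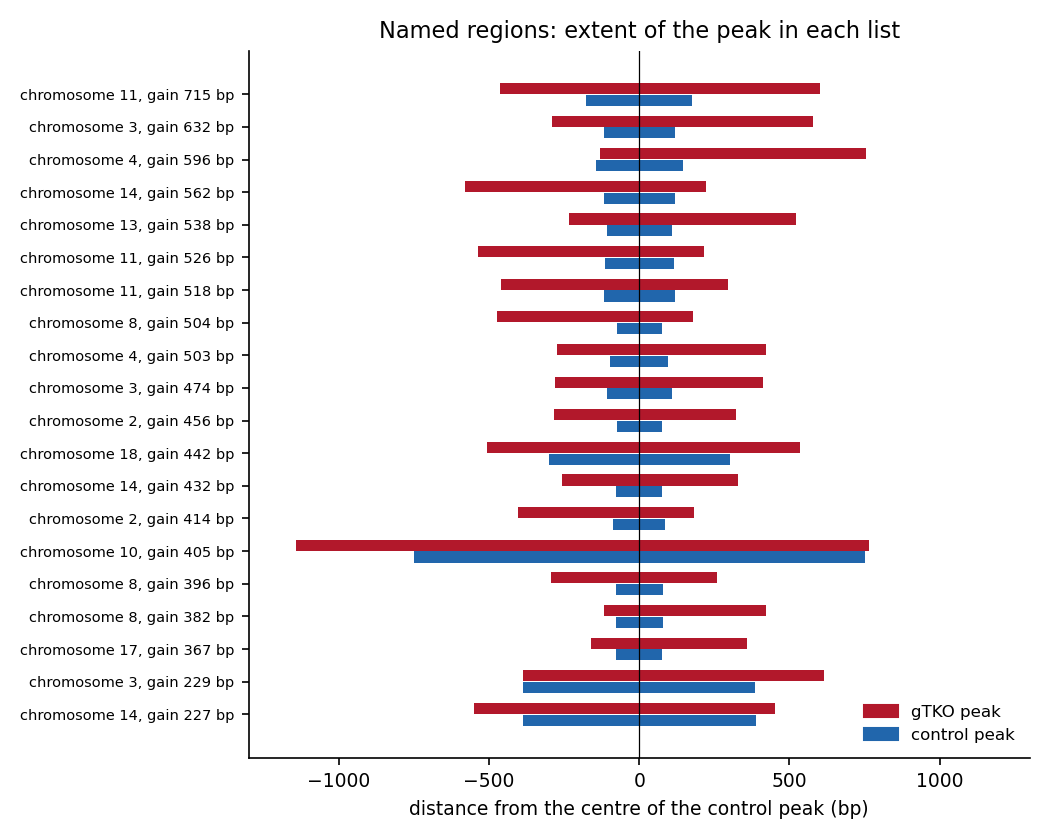
Extent of the gTKO peak (red) and the control peak (blue) of the 20 named regions, as distance in bp from the centre of the control peak (x axis), ordered by gain in width. The gTKO peak spans the control peak in all but the chromosome 4 region with a gain of 596 bp and the chromosome 3 region with a gain of 229 bp, and growth is unequal on the 2 sides in most.

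The surroundings of the regions were not used to choose them. Regions called in gTKO alone lay nearby more often, and regions called in control alone less often, than around other pairs. Within 10 kb, 507 of 2351 wider regions (21.6%, 95% interval 19.9 to 23.3%) had a gTKO-only region, against 3694 of 35521 other pairs (10.4%, 10.1 to 10.7%). At the same make-up of control widths the share in other pairs was 11.7%. A control-only region was found within 10 kb of 592 wider regions (25.2%, 23.4 to 27.0%) and of 33.6% of other pairs (33.1 to 34.1%), or 30.9% at the same control widths. Counted once for each pair they lay near, there were 819 gTKO-only and 1002 control-only regions around the wider regions, 0.817 of the first for each of the second. Around narrower pairs this number was 0.156 and around pairs in between 0.299. Around all pairs it was 0.254. On the chromosomes compared, the control list held 57261 peaks, of which 15471 were control-only. The gTKO list held 49550 peaks, of which 4828 were gTKO-only. Control-only regions were thus the more numerous kind, so each share is read against that of other pairs. The share with neither kind within 10 kb was 60.5%, close to the 60.2% of other pairs. These intervals cover counting error only and treat regions as independent, which neighbours are not, so no test was made.

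The same direction was seen at each distance examined. Within 1 kb a gTKO-only region was present at 7.15% of wider regions and 2.15% of other pairs, and a control-only region at 5.53% and 11.0%. At this distance the pairing rule itself matters, since a gTKO peak that grew into a second control peak would not count as a pair. From 1 to 10 kb, beyond the longest extension, the shares were 16.7% and 8.79% for gTKO-only regions and 22.2% and 27.4% for control-only regions. Within 50 kb they were 44.2% and 31.8% for gTKO-only regions and 61.9% and 68.4% for control-only regions. The contrasts were smaller against other pairs at the same control widths. Those had a gTKO-only region in 2.79% within 1 kb, 9.81% from 1 to 10 kb and 32.8% within 50 kb. For control-only regions these shares were 8.88%, 25.6% and 65.4%.

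The contrast with other pairs did not depend on the narrowest peaks. With a control peak of 300 to under 500 bp, 21.9% of 407 wider regions (17.9 to 26.2%) and 12.0% of 8201 other pairs (11.3 to 12.7%) had a gTKO-only region within 10 kb. For control-only regions these shares were 22.9% (18.9 to 27.2%) and 36.0% (34.9 to 37.0%). At 150 to under 200 bp the control-only shares lay closer together, at 25.9% (23.2 to 28.6%) and 27.9% (26.3 to 29.6%), with overlapping intervals. The gTKO-only shares at that width were 20.9% and 11.8%.

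Surroundings also followed the size of the growth. A gTKO-only region lay within 10 kb of 19.1% of regions that were 25 to 50% wider, 23.7% of those with a ratio from 1.5 to 2 and 29.4% of those from 2 upwards (95% interval 23.7 to 35.6%). It was already 15.6% in pairs of equal width or less than 25% wider in gTKO, and between 8.51% and 9.70% in each class of pairs narrower in gTKO. Control width fell along this order, from a median of 646 bp at ratios of 0.8 to 1 to 178 bp at ratios of 2 or more. Among pairs with a control peak of 200 to under 300 bp, the gTKO-only share was 10.9% at ratios of 0.8 to 1, 14.6% in pairs of equal width or less than 25% wider, 26.9% at ratios of 1.5 to 2 and 29.4% from 2 upwards. The control-only share fell from 45.9% of pairs with a ratio under 0.5 to 27.2% of pairs of equal width or less than 25% wider. Within the wider regions it went on at 26.6%, 22.8% and 24.4%, with overlapping intervals. At control peaks of 200 to under 300 bp the control-only share did not fall steadily. It was 39.8% at ratios of 0.5 to 0.67, 30.7% at 0.67 to 0.8 and 33.2% at 0.8 to 1. Pairs of equal width or less than 25% wider had 26.3%, and the wider regions 25.3%, 26.5% and 26.5%.

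**Figure D4:**
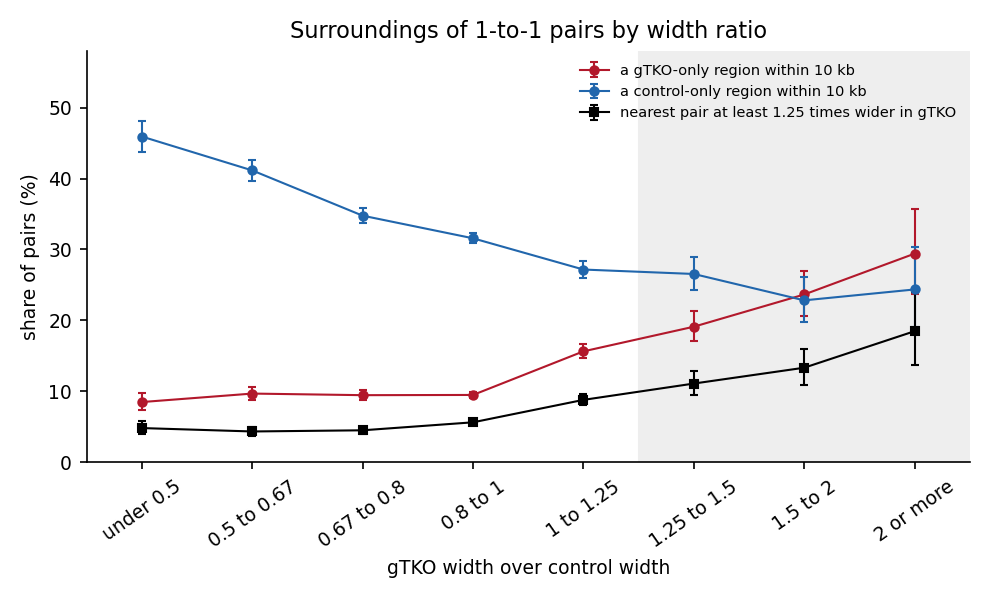
Share of 1-to-1 pairs (y axis, %) with a gTKO-only region within 10 kb (red), a control-only region within 10 kb (blue) or a nearest pair that is itself at least 25% wider in gTKO (black), by ratio of gTKO to control width (x axis), with exact 95% intervals. Shading marks the wider regions, where the red share rises from 19.1% to 29.4%.

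Wider regions had a wider region as their nearest pair more often than other pairs did. The nearest other pair was itself a wider region for 295 of 2351 (12.5%, 95% interval 11.2 to 14.0%), against 2022 of 35521 other pairs (5.69%, 5.45 to 5.94%) and 6.74% at the same control widths. It was already 8.81% for pairs of equal width or less than 25% wider in gTKO. Narrower pairs also lay beside their own kind, with a narrower nearest pair for 41.9% of them against 37.1% of all pairs. A nearest pair wider in gTKO by any amount was found for 33.2% (31.3 to 35.1%) and 19.1% (18.7 to 19.6%). The share of wider regions with a wider nearest pair past the 25% limit was 17.2% (14.3 to 20.5%) where the nearest pair lay under 2 kb away, 11.7% at 2 to 10 kb, 10.0% at 10 to 50 kb and 11.2% from 50 kb upwards. In other pairs it stayed between 5.40% and 6.31% over these distances. Taken in order along the chromosomes, 1869 wider regions had no wider region as the next pair on either side. The other 482 stood in 221 unbroken series, 189 of 2 regions, 25 of 3, 6 of 4 and 1 of 5. With 6.21% of all pairs being wider regions, some series would arise without any grouping. Their number was not computed, so these counts are descriptions.

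The series of 5 lay on chromosome 8 between 22133177 and 22150807. Its control peaks measured 434, 161, 168, 164 and 151 bp, and its gTKO peaks 843, 221, 293, 345 and 192 bp. No control-only region lay within 50 kb of any of them, while each had 5 gTKO-only regions within that distance. On chromosome 2, 4 regions followed each other within 3.59 kb, and the first of them, chr2:173088926-173089680, grew from 344 to 755 bp. Their surroundings differed from those on chromosome 8, with 1 gTKO-only and 6 control-only regions within 50 kb of each. On chromosome 11, chr11:81820275-81820802 (175 to 528 bp) lay 26.0 kb from the region of 238 and 756 bp named above, and these had ratios of 3.02 and 3.18. On chromosome 14, 3 regions of a series of 4 followed at spacings of 10.7 and 11.0 kb, at chr14:43953537-43953762, chr14:43964204-43964415 and chr14:43975104-43975458, with 4, 4 and 2 gTKO-only regions and 3, 2 and 0 control-only regions within 10 kb.

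Wider regions were spread over many larger windows, in unequal numbers. Of 2259 windows of 1 Mb that held a pair, 1161 held at least 1 wider region, 586 held exactly 1 and 69 held 5 or more. Those 69 windows held 429 of the 2351 wider regions. The share of all pairs in them is not given here. The windows with the most lay side by side on chromosome 4, from 145 to 147 Mb, with 19 of 80 and 15 of 94 pairs. In the same windows 19 and 33 pairs were narrower in gTKO. These 34 regions were 1.45% of all wider regions, had a median of 215 bp in control and 317 bp in gTKO, and shared the windows with 100 gTKO-only and 116 control-only regions.

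Of the 4 windows with 9 wider regions each, 3 lay on chromosome 8, from 11 to 12, 72 to 73 and 74 to 75 Mb. These held 61, 88 and 100 pairs, so the shares were 14.8%, 10.2% and 9%, against 6.21% over all pairs. Narrower pairs there numbered 21, 23 and 45. The window on chromosome 7 from 46 to 47 Mb held its 9 wider regions among only 24 pairs (37.5%), of which 4 were narrower. There the 9 regions lay within 62.3 kb, from 46525774 to 46588054. The control peaks of these regions measured 155 to 362 bp, their gTKO peaks 274 to 714 bp, and their ratios ran from 1.26 to 2.95 with a median of 1.90. Some of these peaks were also offset from their partners. Overlaps there were only 1 of 218, 44 of 155, 140 of 362 and 100 of 184 bp of the control peak. The stretch held 29 control and 41 gTKO peaks, which covered 7313 and 12354 bp, and 22 of the gTKO peaks against 7 of the control peaks had no partner. On chromosome 8, 9 regions lay within 152 kb, from 74204319 to 74356144, where control peaks covered 13561 bp and gTKO peaks 15506 bp. Covered lengths, here and on chromosome 7, include the wider regions themselves, which the rule chose for their width. In the stretches of the other 4 windows the control list covered more sequence, so a high number of wider regions did not go with a larger covered length in each.

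**Figure D5:**
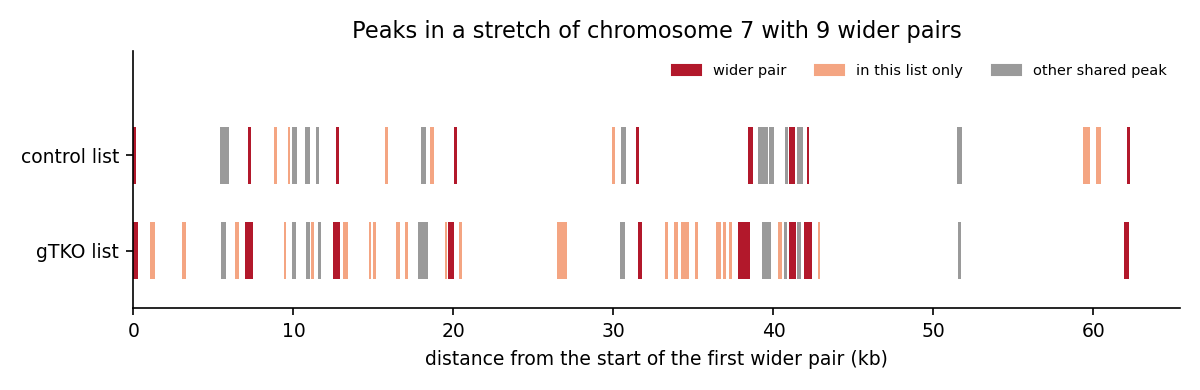
Peaks of the control list (upper row) and the gTKO list (lower row) along a stretch of chromosome 7 of 62.3 kb, as distance in kb from its first wider region (x axis). Red marks the peaks of the 9 wider regions, orange peaks without a partner (22 in gTKO, 7 in control) and grey other shared peaks.

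Differences between chromosomes were small. The share of pairs that were wider regions ran from 4.37% on chromosome X (35 of 801, 95% interval 3.06 to 6.02%) to 7.88% on chromosome 14 (115 of 1460, 6.55 to 9.38%). At each chromosome's own control widths, the shares over all pairs would give 5.84% on chromosome X and 6.75% on chromosome 14, inside both intervals. On chromosome 11 the share was 4.52% (124 of 2744, 3.77 to 5.36%), where its control widths would give 5.73%, outside the interval. It was the only one of the 20 chromosomes outside. These 20 intervals were not adjusted for their number and treat pairs as independent, so no difference is read from it. Chromosome X also had the largest share of narrower pairs, 43.9%, and the lowest median ratio, 0.830, against 0.856 on chromosome 11.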

How the data were processed

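The authors deposited 1 ATAC-seq peak list per genotype, with 3 columns (sequence name, start, end) and no score, summit or p-value. Per the submitters' processing notes, coordinates are in mm9, and Bowtie2, Picard, MACS2 and bedtools are among the tools listed. How peaks were thresholded and filtered, and whether libraries were pooled, are points not given in the sources used here. Called width can vary with read depth, which is unknown here. Peaks sharing at least 1 bp were matched, and pairs in which both peaks had a single partner were kept. Width is end minus start, and printed starts count from 1. Shares carry exact 95% Clopper-Pearson intervals. Comparisons at the same control widths used 5 classes starting at 150, 200, 300, 500 and 1000 bp. Named regions are the 10 largest gains, the 10 highest ratios, the 5 widest in gTKO, 3 pairs on each side of the limit, the windows with the most wider regions and, chosen after their values were seen, series of neighbouring regions. The regions and this rule were chosen with earlier results of these data known. Gene models and sequence of that build were not used here, so the planned comparisons of genes, gene lists and motifs were not made. Pairing and counts of nearby regions were tested on simulated lists. Python 3.11.15, numpy 2.4.6, pandas 2.3.3, scipy 1.17.1 and matplotlib 3.10.9 were used.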

Additional observations from a re-analysis of the deposited data

How the results depend on the processing

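The number of wider regions stayed within 1.5 times of 2351 under both other overlap rules (2418 and 2259), without control peaks of the smallest width (2241) and with all sequences (2398). It was 965 at a ratio of at least 1.5, 238 at a ratio of at least 2, 1292 with a gain of at least 100 bp, 469 with control peaks of at least 300 bp, and 4739 with ratios divided by their median. The first 4 of these can only remove regions. Growth past both edges was found in 43.7% of regions when each extension had to reach 25 bp and in 19.6% at 50 bp. The share whose nearest pair was also a wider region was 7.04% among pairs with a control peak of at least 300 bp (other pairs 1.63%), and 14.1% for nearest pairs within 10 kb (other pairs 5.57%). The share with a gTKO-only region was 15.9% within 5 kb (other pairs 6.35%), 44.2% within 50 kb and 16.7% from 1 to 10 kb. It was 11.2% when only gTKO-only regions of at least 200 bp counted, where other pairs had 4.35%. For control-only regions these 4 shares were 16.4% (other pairs 23.9%), 61.9%, 22.2% and 14.3%, the last against 19.4% in other pairs. Without the 2 windows with the most wider regions, the gTKO-only, control-only and nearest-pair shares were 20.8%, 24.4% and 12.5%. In other pairs they were 10.1%, 33.4% and 5.64%. With classes of the geometric mean of both widths, other pairs had a gTKO-only region in 11.2% and a control-only region in 34.2%. The settings from 1 to 10 kb, with one-list regions of at least 200 bp, without the 2 windows, and with the geometric mean were chosen after seeing the data. No paired analysis was possible because the 3 libraries of a genotype share 1 list, which also prevents leaving out a replicate. Planned settings for gene starts, GC content and motifs were not run. Depth is unknown, and its bearing on the widths was not tested.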

Other observations

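Sequences outside chromosomes 1 to 19 and X held 374 further 1-to-1 pairs, of which 47 (12.6%) were at least 25% wider in gTKO, while in 131 the control peak was at least 25% wider. All of the wider ones lay on contigs assigned to a chromosome without a position. On those of chromosome 1, 29 of 132 pairs (22.0%) were wider and 37 narrower, and on those of chromosome 8, 16 of 106 (15.1%) were wider and 14 narrower. The sequence that gathers contigs of no known chromosome had 83 pairs, of which 0 were wider, which allows a share of up to 3.61% (a limit of 3 counts over 83 pairs), and 64 were narrower.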
